A study of Mus musculus with 15 samples.

Results

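A group of 10 transcription factor genes of retinal ganglion cell development was followed through self-organizing optic tissue made from mouse ES cells. They were taken by symbol from the expression table of the whole series, as Atoh7, Pou4f1, Pou4f2, Pou4f3, Isl1, Ebf1, Ebf3, Dlx1, Dlx2 and Eomes. All 10 symbols were found, each in 1 of the 23244 gene entries. The 10 genes did not share 1 pattern. Atoh7, Pou4f2, Isl1, Dlx1 and Dlx2 were higher with Fgf than with Wnt stimulation at both Day 12 and Day 15. Pou4f1, Ebf1 and Ebf3 were lower with Fgf at Day 12 and higher with Fgf at Day 15. Eomes was higher with Wnt at both days, and Pou4f3 was counted in at most 14 reads of any library.

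Retinal ganglion cells are the projection neurons of the retina, and their axons form the optic nerve. They are the first neurons that retinal progenitors produce. Atoh7, a basic helix-loop-helix factor, makes progenitors competent for this fate, and the POU domain factor Pou4f2 (Brn3b) and the LIM homeodomain factor Isl1 act downstream of it in differentiation. Pou4f1 (Brn3a) and Pou4f3 (Brn3c) mark subtypes of ganglion cells and are also sensory neuron factors. Ebf1 and Ebf3 are helix-loop-helix factors of many young neurons. The homeodomain factors Dlx1 and Dlx2 act in ganglion cells, in other inner retinal neurons and in forebrain interneurons. Eomes (Tbr2) is a T-box factor of a ganglion cell subset, of cortical intermediate progenitors and of early mesendoderm. Most of these genes are thus also active in neurons other than ganglion cells.

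The tissue came from the EB5 mouse ES cell line carrying Rx::GFP+/-, a reporter of the eye field gene Rx that all groups share. Aggregates of 3000 cells were made on Day 1 in SFEBq culture and received 4% Matrigel at Day 2. At Day 10 the GFP-positive tissue at the periphery was excised and either collected (Day 10 Rx::GFP+) or cultured further under 1 of 2 stimulations. In +Wnt culture, the GSK3 inhibitor CHIR99201 was given at 3 μM for 24 h and at 1 μM from then on. In +Fgf culture, 5 ng/ml human recombinant bFgf was given together with 10% FBS. FBS is listed for this medium only, so Fgf and FBS cannot be told apart. Tissue was collected at Day 12 and Day 15 under both stimulations, which gave 5 groups of 3 biological replicates and 15 libraries in all. No group without stimulation at Day 12 or Day 15 was analysed here. All samples descend from 1 ES cell line, so the p-values measure the spread between cultures of this line.

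Values are the deposited normalized values, which the study calls CPM and which scale the reads of a gene to the size of the library. A library held between 12556998 and 16175450 reads counted on genes, and 1 read was worth between 0.0620 and 0.0764 units. The test was limma on log2(value + 0.3), with Benjamini-Hochberg adjustment over the 13845 genes with 1 CPM or more (of the total of the library) in 3 or more libraries, and a gene was called at an adjusted p under 0.05 (two-sided). For genes near 0, a difference on this scale is smaller than the true fold. Of the 10 genes, 9 passed the filter and Pou4f3 did not. Atoh7 and Dlx1 reached the filter level in +Fgf libraries only, so they could enter the test only by being high there. The same holds for Pou4f2, which outside +Fgf reached it only in Day 15 +Wnt and in fewer than 3 libraries. At Day 15, the sums of the marker genes followed the labels of the tissues. The sum of 3 neural retina genes (Six3, Crx and Vax2) was between 409 and 469.9 in Day 15 +Fgf and between 33.9 and 35.9 in Day 15 +Wnt, whereas the sum of 5 pigment epithelium genes was between 4982 and 6476 in Day 15 +Wnt and between 218.5 and 283 in Day 15 +Fgf. At Day 12, 2 of the 3 neural retina genes were higher and 1 lower in +Fgf than in +Wnt, beside 26.3% and 25.2% of all tested genes. Their sum in Day 12 +Fgf, between 217.3 and 285.2, overlapped that of Day 10, between 222.7 and 248.6. The tissues are bulk samples, in which fewer cells of a type and less RNA per cell cannot be told apart.

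**Figure D1:**
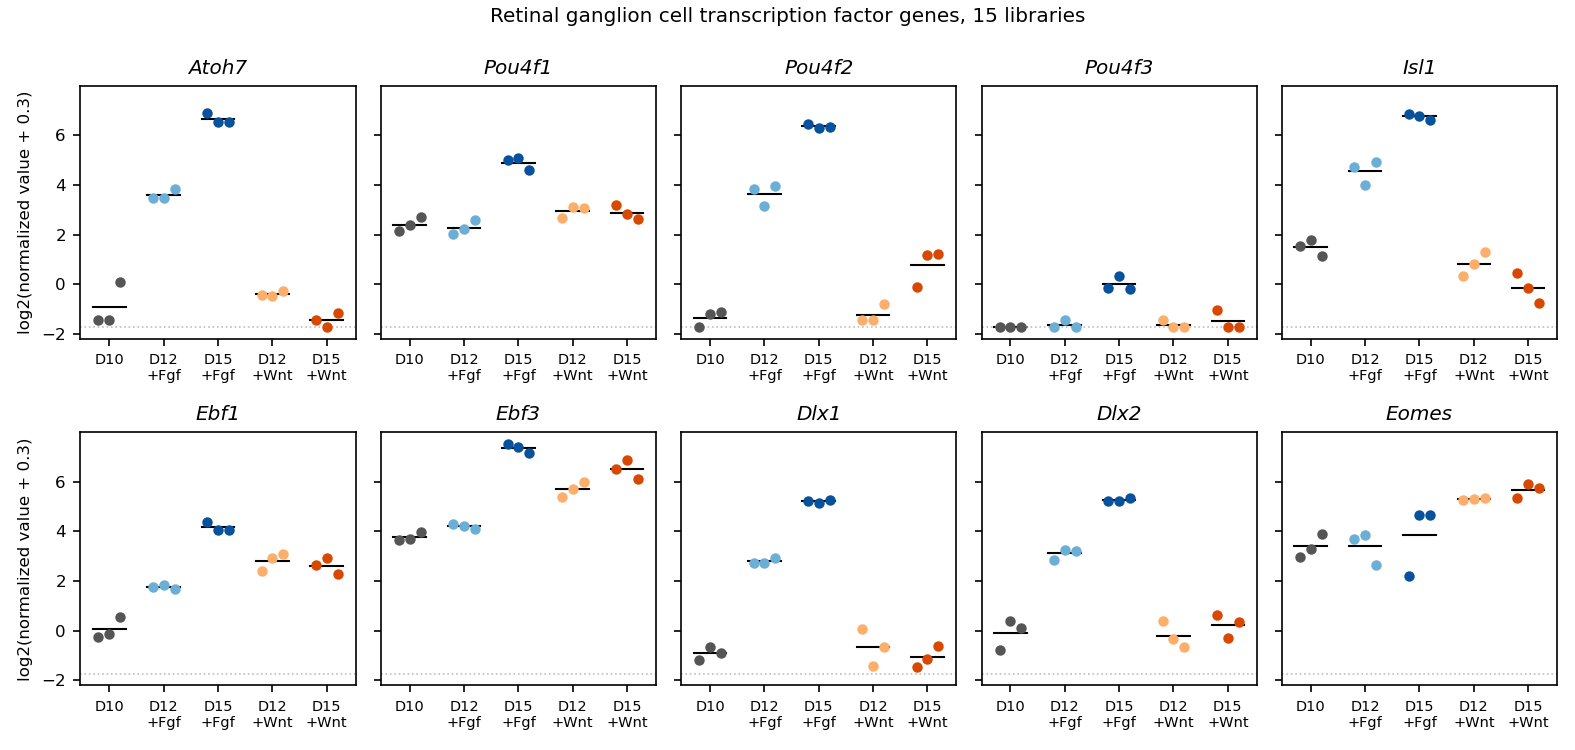
Normalized values of the 10 genes in all 15 libraries. Points are libraries on the log2(value + 0.3) scale, lines are group means of that scale, and the dotted line marks a value of 0. Atoh7, Pou4f2, Isl1, Dlx1 and Dlx2 form 2 steps upwards in +Fgf, Ebf1, Ebf3 and Pou4f1 are highest in Day 15 +Fgf but stand higher in +Wnt than in +Fgf at Day 12, and Eomes is highest in +Wnt.

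Atoh7, which gives progenitors the competence to become ganglion cells, was near the limit of counting outside the +Fgf groups. The gene lies on the plus strand of chromosome 10 (63099651-63101279, GRCm38) and has 1 exon. Its values were 0.068, 0.067 and 0.764 in the 3 Day 10 libraries, which correspond to 1, 1 and 10 reads. In +Fgf, they were 10.96, 10.89 and 13.93 at Day 12 and 120.9, 92.99 and 92.65 at Day 15. Every +Fgf library stood above every other library, and the 2 +Fgf days did not overlap. In +Wnt, the values were 0.440, 0.418 and 0.530 at Day 12 and 0.062, 0 and 0.140 at Day 15. The +Wnt libraries thus lay within or below the range of the Day 10 libraries.

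Atoh7 rose by 4.54 ± 0.31 (log2 difference ± SE) from Day 10 to Day 12 +Fgf (limma, adjusted p = 6.6e-09) and by a further 3.07 ± 0.31 from Day 12 to Day 15 (adjusted p = 3.6e-07). In +Wnt it fell by 1.07 ± 0.31 on the log2 scale from Day 12 to Day 15 (adjusted p = 0.0058). The change from Day 10 to Day 12 +Wnt was 0.54 ± 0.31 and was not called (adjusted p = 0.14), but it was called at 1.05 (adjusted p = 0.00048) without Day 10 replicate 3, the library with 10 reads. At Day 15, 4305 reads were counted in the 3 +Fgf libraries and 3 reads in the 3 +Wnt libraries, a ratio of 1486 after normalization with an exact 95% interval from 508 to 7210. Such intervals cover the error of counting alone and leave out the spread between replicates, because the reads of the 3 libraries are summed. PCR duplicates were not removed by molecular identifiers, and the intervals do not allow for them either.

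Pou4f2, the POU factor that acts early in ganglion cell differentiation, rose by Day 15 under both stimulations, but to levels far apart. It lies on the minus strand of chromosome 8 (78433010-78436645). Its Day 10 values were 0, 0.134 and 0.153, or at most 2 reads in a library. In +Fgf, they were 14.01, 8.47 and 15.46 at Day 12 and 87.31, 77.88 and 80.99 at Day 15. In +Wnt, they were 0.063, 0.070 and 0.265 at Day 12 and 0.620, 1.94 and 2.03 at Day 15. Day 12 +Wnt overlapped Day 10, while Day 15 +Wnt stood above both and below all +Fgf libraries.

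From Day 12 to Day 15, Pou4f2 rose by 2.71 ± 0.32 in +Fgf (limma, adjusted p = 1.8e-06) and by 2.00 ± 0.32 in +Wnt (adjusted p = 3e-05). The difference between these changes was 0.72 ± 0.45 and was not called (adjusted p = 0.20), but it was called with a pseudocount of 1 (1.53, adjusted p = 6e-04) and under quantile normalization (1.21, adjusted p = 0.029). Its sign depended on the treatment of low values, with -0.83 in DESeq2 on the recovered reads (adjusted p = 0.34). Against Day 10, the reads gave a ratio of 135 for Day 12 +Fgf (95% interval 52.5 to 497), of 875 for Day 15 +Fgf (341 to 3214) and of 15.9 for Day 15 +Wnt (5.90 to 59.9).

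Pou4f1 was present in every library and did not follow Pou4f2. It lies on the minus strand of chromosome 14 (104461676-104467999). It was at 4.09, 4.88 and 6.19 at Day 10, and at 3.80, 4.40 and 5.62 in Day 12 +Fgf. These groups overlapped, and the difference of -0.12 ± 0.19 was not called (limma, adjusted p = 0.61). In Day 15 +Fgf the values were 31.86, 33.31 and 24.31, above all other libraries, a rise of 2.62 ± 0.19 from Day 12 (adjusted p = 8.8e-09). In +Wnt, they were 5.98, 8.35 and 8.08 at Day 12 and 8.75, 6.86 and 5.89 at Day 15. These values overlapped each other and those of Day 10. The differences of 0.54 ± 0.19 (Day 12) and 0.48 ± 0.19 (Day 15) from Day 10 were called (adjusted p = 0.022 and 0.030), but under quantile normalization they were 0.31 and -0.27 and neither was called.

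Pou4f3 (18:42394539-42397249, plus strand) was not detected in the 3 Day 10 libraries. Day 15 +Fgf held 8, 14 and 8 reads, or values of 0.590, 0.962 and 0.565, whereas 1 library of each Day 12 group held 1 read and 1 library of Day 15 +Wnt held 3. Day 15 +Fgf stood above every other library. A count of 3 reads per library at Day 10 would make its mean at least 3.34-fold higher there. Against Day 15 +Wnt, its reads gave a ratio of 10.4 (95% interval 3.22 to 53.0). When all entries were tested with no filter, the difference between Day 15 +Fgf and Day 15 +Wnt was 1.49 ± 0.19 (limma, adjusted p = 5.6e-06).

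Isl1, the LIM homeodomain factor that works together with Pou4f2 in ganglion cells and is also found in amacrine, bipolar and motor neurons, moved in opposite directions under the 2 stimulations. It lies on the minus strand of chromosome 13 (116298281-116309689). At Day 10 it was at 2.59, 3.14 and 1.91. In +Fgf, the values were 26.05, 15.61 and 30.41 at Day 12 and 116.9, 111.2 and 98.3 at Day 15. In +Wnt, they were 0.944, 1.46 and 2.19 at Day 12 and 1.06, 0.597 and 0.281 at Day 15. All +Fgf libraries stood above Day 10, and all Day 15 +Wnt libraries stood below it.

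Isl1 rose by 3.07 ± 0.30 from Day 10 to Day 12 +Fgf (limma, adjusted p = 3.7e-07) and by 2.21 ± 0.30 to Day 15 (adjusted p = 9.7e-06). In Day 15 +Wnt it fell by 1.65 ± 0.30 on the log2 scale against Day 10 (adjusted p = 8.4e-05). The fall from Day 12 to Day 15 +Wnt of -0.98 ± 0.30 (adjusted p = 0.0082) was not called by edgeR on the recovered reads (-1.14, adjusted p = 0.091) or without replicate 3 of either group (-0.73 and -0.67). With RIN, a measure of RNA integrity, as a covariate, the rise from Day 12 to Day 15 in +Fgf was 1.29 and not called (adjusted p = 0.11). RIN moved with the groups, between 7.7 and 8.4 in Day 15 +Fgf, 9.2 and 10 in Day 12 +Fgf and 9 and 9.9 in Day 15 +Wnt, which did not overlap Day 15 +Fgf. The covariate lowered the genes called over the whole table from 7899 to 3591 in this comparison, so RIN and the Day 15 +Fgf group can be told apart only in part.

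Dlx1 and Dlx2, a pair of homeodomain factors that lie 9426 bases apart and are transcribed towards each other, rose together in +Fgf and were not called in +Wnt. Dlx1 lies on the plus strand (2:71528113-71533981) and Dlx2 on the minus strand (2:71543408-71546754). Dlx1 was at 0.136, 0.334 and 0.229 at Day 10, at 6.34, 6.37 and 7.22 in Day 12 +Fgf, and at 37.17, 35.1 and 38.51 in Day 15 +Fgf. It was at 0.755, 0.070 and 0.331 in Day 12 +Wnt and at 0.062, 0.149 and 0.351 in Day 15 +Wnt. The +Fgf groups stood apart from each other and from all other libraries, and the +Wnt groups overlapped Day 10.

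Dlx2 was at 0.273, 1.00 and 0.764 at Day 10, at 6.97, 9.30 and 9.07 in Day 12 +Fgf, and at 37.09, 37.71 and 40.56 in Day 15 +Fgf. In +Wnt, its values lay between 0.331 and 1.01 at Day 12 and between 0.522 and 1.24 at Day 15, again overlapping Day 10. The rise from Day 10 to Day 12 +Fgf was 3.72 ± 0.30 for Dlx1 (limma, adjusted p = 4.4e-08) and 3.23 ± 0.31 for Dlx2 (adjusted p = 2.4e-07). From Day 12 to Day 15 +Fgf, it was 2.42 ± 0.30 and 2.16 ± 0.31 (adjusted p = 3.5e-06 and 1.5e-05). Dlx1 shares 335 exon bases with the antisense gene Dlx1as, which was at a mean of 4.23 in Day 12 +Fgf and 21.0 in Day 15 +Fgf. The library kit keeps the strand, but the strand setting of the counting is not given in the sources used here, so the reads of this stretch cannot be told apart.

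Because Atoh7, Pou4f2, Isl1 and Dlx2 rose in the same 2 steps, their promoter sequences are shown for the E-box CANNTG, the letters that basic helix-loop-helix factors such as Atoh7 bind. Each run holds bases from 250 before the RefSeq start (GRCm38.p6, read on the strand of the gene) and ends before the GENCODE gene begins, with each CANNTG match in capitals. The runs lie at chr10:63099535-63099650 (Atoh7), chr8:78436648-78436897 (Pou4f2), chr13:116309690-116309938 (Isl1) and chr2:71546755-71547004 (Dlx2).
Atoh7: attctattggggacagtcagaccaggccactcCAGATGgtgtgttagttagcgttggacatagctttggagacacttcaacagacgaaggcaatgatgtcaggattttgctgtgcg
Pou4f2: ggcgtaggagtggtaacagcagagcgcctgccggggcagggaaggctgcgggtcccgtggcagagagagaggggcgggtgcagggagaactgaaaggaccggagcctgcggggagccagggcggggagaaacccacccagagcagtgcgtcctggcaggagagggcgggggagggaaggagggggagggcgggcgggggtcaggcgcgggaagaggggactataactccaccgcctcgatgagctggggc
Isl1: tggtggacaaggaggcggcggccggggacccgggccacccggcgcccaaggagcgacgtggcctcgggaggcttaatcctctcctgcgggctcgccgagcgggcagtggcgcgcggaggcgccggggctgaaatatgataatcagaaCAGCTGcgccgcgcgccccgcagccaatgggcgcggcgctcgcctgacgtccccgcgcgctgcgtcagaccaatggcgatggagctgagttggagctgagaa
Dlx2: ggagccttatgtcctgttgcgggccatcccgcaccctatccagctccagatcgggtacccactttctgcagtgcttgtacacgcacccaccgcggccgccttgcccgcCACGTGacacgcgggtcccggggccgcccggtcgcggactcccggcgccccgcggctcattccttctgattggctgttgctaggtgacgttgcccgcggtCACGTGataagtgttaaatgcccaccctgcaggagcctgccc

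The 250 bases before the RefSeq start were searched for the 9 genes other than Pou4f3. CANNTG occurred in 4 (Atoh7, Pou4f1, Isl1 and Dlx2), against 66.0% of 27025 promoters of the same length. The windows of Dlx1 (2:71529195-71529444) and Ebf1 (11:44617850-44618099) lie inside their GENCODE genes, so no run is printed for Dlx1. Since CANNTG reads the same on both strands in this form, 1 search covers both. Atoh7 held 3 matches, of which 1 lies before the GENCODE gene, and Pou4f2, which rose beside Atoh7, held none. Among the forms that CANNTG includes, CAGATG or CATCTG occurred in the Atoh7 window only, against 14.5% of all promoters, CAGCTG in Pou4f1 and Isl1, against 12.8%, and CATATG in none of the 9, against 3.47%. The homeodomain core TAATTA was also in none, against 4.90%. These matches describe letters in a short window and are not evidence of binding.

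Ebf1 and Ebf3 were higher with Wnt than with Fgf at Day 12 and higher with Fgf than with Wnt at Day 15. Ebf3 (7:137193673-137314445, minus strand) was at 12.47, 12.84 and 15.66 at Day 10. It was at 19.2, 18.41 and 17.06 in Day 12 +Fgf and at 185, 170.5 and 144.4 in Day 15 +Fgf. In +Wnt, it was at 41.33, 51.71 and 64.28 at Day 12 and at 92.19, 118.7 and 68.89 at Day 15. The 5 groups did not overlap, and their order from the lowest was Day 10, Day 12 +Fgf, Day 12 +Wnt, Day 15 +Wnt and Day 15 +Fgf.

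Ebf1 (11:44617317-45008091, plus strand) was at 0.545, 0.602 and 1.15 at Day 10, at 3.04, 3.25 and 2.87 in Day 12 +Fgf, and at 20.72, 16.21 and 16.25 in Day 15 +Fgf. In +Wnt, it was at 4.97, 7.38 and 8.21 at Day 12 and at 5.89, 7.23 and 4.56 at Day 15. The 2 +Wnt groups overlapped, and both lay between the 2 +Fgf groups. Ebf1 rose by 2.76 ± 0.22 from Day 10 to Day 12 +Wnt (limma, adjusted p = 3.1e-08) and by 1.70 ± 0.22 to Day 12 +Fgf (adjusted p = 8.5e-06).

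For Ebf3, the difference between +Fgf and +Wnt was -1.49 ± 0.17 at Day 12 (limma, adjusted p = 1.4e-06) and 0.86 ± 0.17 at Day 15 (adjusted p = 0.00024). For Ebf1, it was -1.06 ± 0.22 (adjusted p = 0.00076) and 1.55 ± 0.22 (adjusted p = 1e-05). The Day 15 difference of Ebf3 was 0.59 and not called with RIN as a covariate (adjusted p = 0.14). The rise of Ebf3 from Day 10 to Day 12 +Fgf, 0.41 ± 0.17 (adjusted p = 0.046), was lost in most alternatives, with an adjusted p of 0.13 in edgeR.

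Eomes (9:118478212-118486132, plus strand) was the gene of the 10 that was higher with Wnt at both days. It was at 7.50, 9.63 and 14.75 at Day 10. In +Wnt, the values were 37.87, 39.12 and 41.11 at Day 12 and 41.07, 59.96 and 54.08 at Day 15. In +Fgf, they were 12.55, 14.4 and 5.94 at Day 12 and 4.35, 25.14 and 24.8 at Day 15. All +Wnt libraries stood above all others, while the +Fgf groups overlapped Day 10 and Day 15 +Fgf replicate 1 stood far below the other two of its group.

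Between +Fgf and +Wnt, Eomes differed by -1.91 ± 0.48 at Day 12 (limma, adjusted p = 0.0031) and by -1.84 ± 0.48 at Day 15 (adjusted p = 0.0026). With RIN as a covariate, the Day 15 difference was -0.42 and not called (adjusted p = 0.71). Its change from Day 12 to Day 15 +Fgf was 0.44 ± 0.48 and not called (adjusted p = 0.45), but was 1.26 and called (adjusted p = 0.0017) without Day 15 +Fgf replicate 1, as was the difference of Day 15 +Fgf from Day 10 (1.26, adjusted p = 0.0010).

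Because Eomes is also a cortical gene, 4 cortical markers were read beside it. At Day 15, 3 of the 4 were lower in +Fgf than in +Wnt and Neurod6 was not called, beside 38.0% of all genes higher and 30.6% lower. At Day 12, 1 was higher and 2 lower, beside 26.3% and 25.2%. Tbr1, a T-box factor of cortical and some retinal neurons, was at 0.885, 26.24 and 41.2 in the Day 15 +Fgf libraries and at 176.4, 216.2 and 174.3 in Day 15 +Wnt. Neurod6, a cortical neuron gene, was at 0.074, 39.08 and 43.96 in Day 15 +Fgf and at 24.88, 35.57 and 55.98 in Day 15 +Wnt. Emx1, a dorsal forebrain factor, was at 0, 7.69 and 11.59 in Day 15 +Fgf. Bhlhe22, a factor of cortical and some retinal neurons, was at 59.14, 75.75 and 76.04 in Day 15 +Fgf and at 85.18, 102.7 and 92.38 in Day 15 +Wnt. Day 15 +Fgf replicate 1 thus stood at or near 0 for Tbr1, Neurod6 and Emx1, but close to the other libraries of its group for Bhlhe22. The sum of the 4 markers was between 27.2 and 38.7 at Day 10, 19.3 and 35.4 in Day 12 +Fgf, 92.0 and 118 in Day 12 +Wnt, 60.1 and 173 in Day 15 +Fgf, and 308 and 375 in Day 15 +Wnt. The 5 mesendoderm markers summed to at most 5.79 in any library. The part of cortical cells in the Eomes values was not tested.

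**Figure D2:**
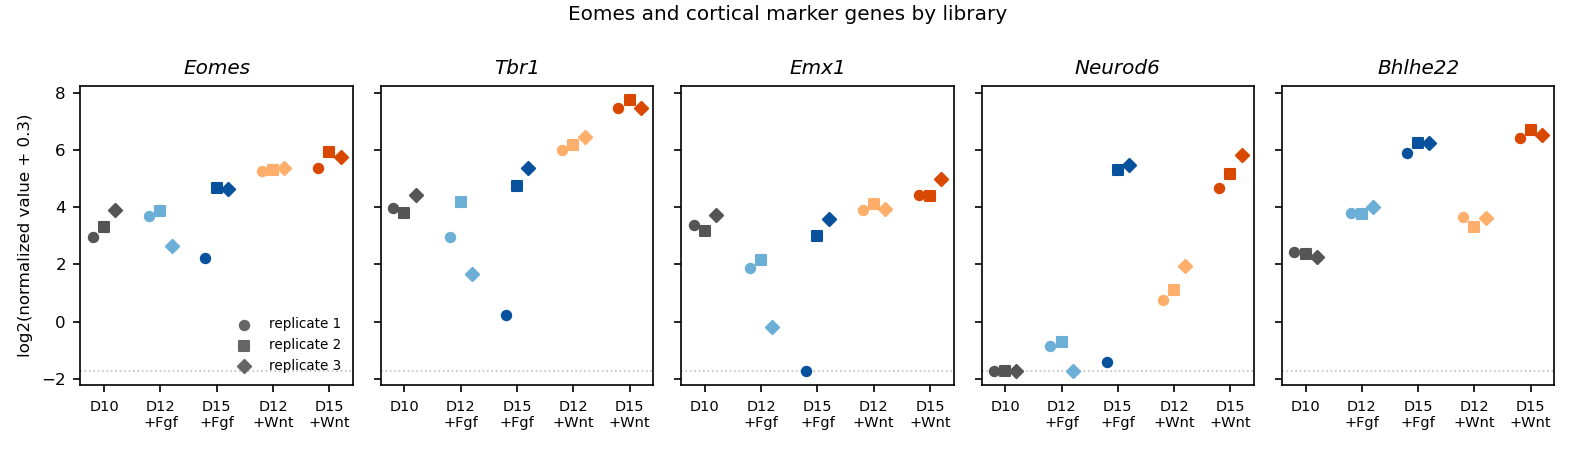
Eomes beside 4 cortical marker genes, by library. The y axis is log2(value + 0.3), symbols mark replicates 1 to 3 of each group, and the dotted line marks a value of 0. Day 15 +Fgf replicate 1 lies below replicates 2 and 3 for Eomes (4.35 against 25.14 and 24.8), Tbr1, Emx1 and Neurod6, and by less for Bhlhe22 (59.14 against 75.75 and 76.04).

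The first question of the design was what Day 10 tissue does after stimulation. In Day 12 +Fgf, 7 of the 9 tested genes were higher and none lower than at Day 10, beside 27.9% of all 13845 tested genes higher and 27.8% lower. Pou4f1 and Eomes were not called. In Day 12 +Wnt, 4 of 9 were higher (Pou4f1, Ebf1, Ebf3 and Eomes) and none lower, beside 30.6% and 29.6%. At Day 15 +Fgf, 8 of 9 were higher and none lower than at Day 10, beside 36.2% and 36.4% of all genes, and Eomes was not called. At Day 15 +Wnt, 5 of 9 were higher (Pou4f1, Pou4f2, Ebf1, Ebf3 and Eomes) and 1 lower (Isl1), beside 39.6% and 40.2%. These 4 comparisons share the Day 10 libraries. Here and in the counts below, Atoh7, Pou4f2 and Dlx1 are among the genes higher in +Fgf, although they passed the filter only through +Fgf libraries.

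The second question was what changes between Day 12 and Day 15. In +Fgf, 8 of 9 rose and none fell, beside 27.2% of all genes higher and 29.9% lower, with Eomes not called. In +Wnt, 2 of 9 rose (Pou4f2 and Ebf3) and 2 fell (Atoh7 and Isl1), beside 32.5% and 35.5%. Under quantile normalization, Pou4f1, Ebf1 and Dlx1 were also called lower in +Wnt. In that setting the median of all genes shifted by at most 0.107 on the log2 scale. As shares of Day 15 +Fgf, Day 12 +Fgf stood at 10.9% for Ebf3, 11.7% for Atoh7, 15.4% for Pou4f2 and 15.45% for Pou4f1. The share was 17.2% for Ebf1, 18.0% for Dlx1, 22.0% for Dlx2, 22.1% for Isl1 and 60.6% for Eomes. These shares do not measure a rise from Day 10, when Ebf3 already stood at 8.2% and Pou4f1 at 16.9% of Day 15 +Fgf.

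The third question was how the stimulations differ at 1 age. At Day 12, 5 of 9 were higher in +Fgf (Atoh7, Pou4f2, Isl1, Dlx1 and Dlx2) and 4 lower (Pou4f1, Ebf1, Ebf3 and Eomes), beside 26.3% of all genes higher and 25.2% lower. At Day 15, 8 were higher in +Fgf and Eomes was lower, beside 38.0% and 30.6%. The largest Day 15 differences were 8.13 ± 0.31 for Atoh7, 6.93 ± 0.30 for Isl1, 6.30 ± 0.30 for Dlx1, 5.61 ± 0.32 for Pou4f2 and 5.04 ± 0.31 for Dlx2 (limma, adjusted p between 1e-12 and 3e-10). Pou4f1 differed by -0.67 ± 0.19 at Day 12 (adjusted p = 0.0081) and by 2.02 ± 0.19 at Day 15 (adjusted p = 8.1e-08).

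**Figure D3:**
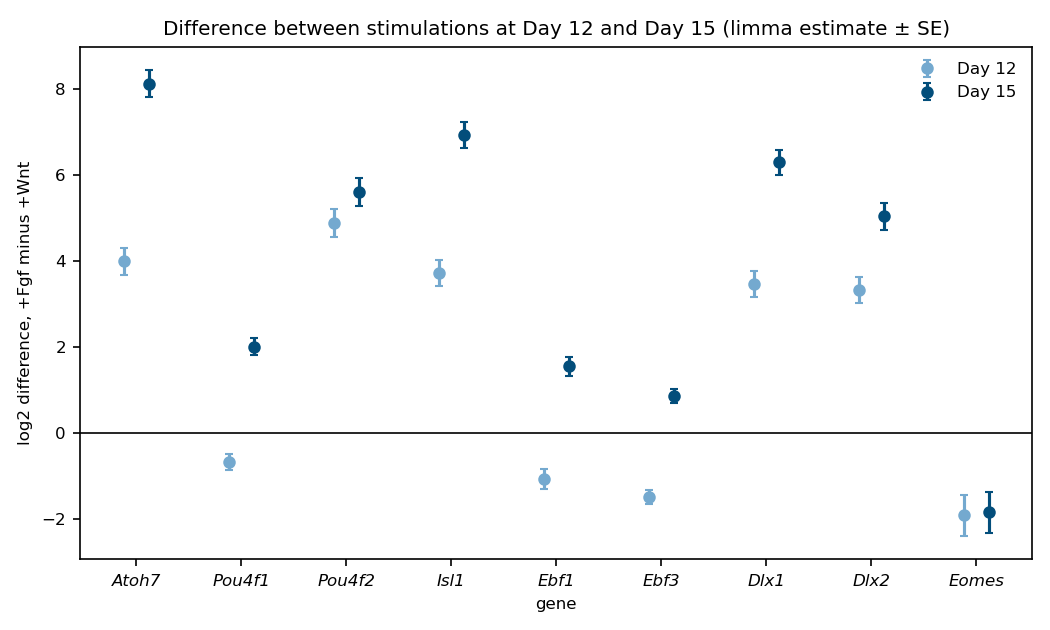
Log2 differences between +Fgf and +Wnt for the 9 tested genes at Day 12 (light) and Day 15 (dark). Points are limma estimates on the log2(value + 0.3) scale, bars are their SE, and values above 0 are higher in +Fgf. Pou4f1, Ebf1 and Ebf3 lie below 0 at Day 12 and above 0 at Day 15, and Eomes lies near -1.9 at both days.

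The change from Day 12 to Day 15 was larger in +Fgf than in +Wnt for 7 of 9 genes and smaller for none, beside 27.0% of all genes larger and 20.9% smaller. This difference of changes was 4.13 ± 0.44 for Atoh7, 3.2 ± 0.43 for Isl1, 2.83 ± 0.43 for Dlx1, 2.68 ± 0.27 for Pou4f1, 2.62 ± 0.32 for Ebf1 and 2.35 ± 0.24 for Ebf3 (limma, adjusted p between 6.4e-07 and 4.3e-05). For Dlx2 it was 1.72 ± 0.43 (adjusted p = 0.0037). Pou4f2 and Eomes were not called.

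To order the levels of different genes, values were divided by the length of the transcript that the deposited data name. In Day 15 +Fgf, the mean value per kilobase was 62.7 for Atoh7, 43.2 for Isl1, 34.4 for Ebf3, 25.6 for Pou4f2, 15.6 for Dlx2, 8.98 for Dlx1, 6.71 for Pou4f1, 5.08 for Eomes, 2.96 for Ebf1 and 0.299 for Pou4f3. Neighbours in this order did not overlap between libraries down to Pou4f1, while Eomes, between 1.22 and 7.06, overlapped both Pou4f1 and Ebf1. In Day 15 +Wnt, Ebf3 (19.3) and Eomes (14.5) were highest per kilobase and overlapped each other. They were followed by Pou4f1 (1.61), Ebf1 (0.986) and Pou4f2 (0.478), and the remaining 5 genes were at 0.370 or less.

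Within +Fgf tissue, the genes kept different proportions to each other at the 2 days. Per read of Isl1 there were between 0.508 and 0.543 reads of Pou4f2 at Day 12 and between 0.700 and 0.824 at Day 15. Per read of Atoh7 there were between 1.43 and 2.38 reads of Isl1 at Day 12 and between 0.967 and 1.20 at Day 15. These ranges did not overlap between days. Reads of Pou4f2 per read of Atoh7 overlapped, at 1.06 ± 0.25 (SD, n = 3) at Day 12 and 0.81 ± 0.08 at Day 15. Reads of Dlx1 per read of Dlx2 were between 0.685 and 0.909 at Day 12 and between 0.931 and 1.00 at Day 15. Ebf3 reads per Ebf1 read were 5.97 ± 0.32 and 9.44 ± 0.93 at these days in +Fgf, and 7.72 ± 0.66 and 15.7 ± 0.66 in +Wnt. The reads were not divided by transcript length here, so these proportions do not rank the levels of the genes. They are a description with no test.

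Likeness between genes was described by Pearson's r of the log2 values over the 15 libraries, which share their groups, so that r mostly reflects the group means. Among the tested 9, r was highest between Atoh7 and Dlx1 (0.985), Dlx1 and Dlx2 (0.982), Atoh7 and Dlx2 (0.970), and Atoh7 and Isl1 (0.966). Ebf1 and Ebf3 reached 0.921. Eomes had an r between -0.58 (Isl1) and 0.44 (Ebf3) with the others. Over all tested genes, the entry most like Atoh7 was BC064078 (0.992), which was also the most like Dlx1 (0.993). Lin7a (0.987) and Gad2 (0.983), a GABA-producing enzyme, were most like Pou4f2. For Isl1 these were Csrp2 (0.989) and Rorb (0.983), for Ebf3 Chgb (0.993) and Trim62 (0.989), for Ebf1 Srrm4 (0.978) and Mfng (0.974), for Pou4f1 Pla2g2f (0.971) and P2rx3 (0.963), and for Eomes Sfxn5 (0.966) and Rasgrp1 (0.964).

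Other transcription factors that work in ganglion cells were read from a list of 18, all of which were tested. From Day 12 to Day 15 in +Fgf, 14 of 18 rose and none fell, beside 27.2% of all genes higher and 29.9% lower, with a median log2 difference of 1.36 beside -0.019 over all genes. In +Wnt, 10 of 18 rose and 2 fell (median 0.59), beside 32.5% and 35.5%. Between +Fgf and +Wnt at Day 15, 11 were higher and 4 lower (median 0.66), beside 38.0% and 30.6% of all genes. At Day 12, 4 were higher and 7 lower (median -0.21), beside 26.3% and 25.2%. Isl2, a LIM homeodomain factor of a ganglion cell subset, was between 8.04 and 11.36 in Day 15 +Fgf and between 0.149 and 0.421 in Day 15 +Wnt, a difference of 4.10 ± 0.34 (limma, adjusted p = 1.3e-08). Tfap2d, an AP-2 family factor, was between 9.12 and 15.9 in Day 15 +Fgf and between 0.491 and 0.744 in Day 15 +Wnt (3.83 ± 0.33, adjusted p = 2.2e-08). Tbr1 went the opposite way, with -4.11 ± 0.88 (adjusted p = 0.00058).

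Isl2, Tfap2d and Tbr1 were named for the size of their Day 15 difference, and Neurog2, Sox11 and Sox4 for their abundance. The proneural factor Neurog2 was at 199 ± 7.7 (SD, n = 3) in Day 15 +Fgf and at 59.3 ± 7.5 in Day 15 +Wnt (1.75 ± 0.13, limma, adjusted p = 4.4e-09). Sox11 and Sox4, which are active in many young neurons, were higher in Day 15 +Fgf by 0.63 ± 0.08 and 0.37 ± 0.04 (adjusted p = 2.5e-06 and 9.7e-07). Ebf2, the relative of Ebf1 and Ebf3, was lower in +Fgf by -3.10 ± 0.35 at Day 15 (adjusted p = 7.1e-07) and was named after its values were seen.

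Genes that ganglion cells use as neurons were read from a list of 23, of which 21 were tested. From Day 12 to Day 15, 18 rose and 1 fell in +Fgf (median 2.64), beside 27.2% of all genes higher and 29.9% lower, and 20 rose and none fell in +Wnt (median 1.09), beside 32.5% and 35.5%. Between +Fgf and +Wnt at Day 15, 9 were higher and 5 lower, beside 38.0% of all genes higher and 30.6% lower, with a median of 0.19 beside 0.051 over all genes. At Day 12, 3 were higher and 13 lower (median -0.58), beside 26.3% and 25.2%. Among the tested factors, Atoh7, Pou4f2, Isl1, Dlx1 and Dlx2 were higher in +Fgf at Day 12, opposite to most of these neuron genes. Pou4f1, Ebf1, Ebf3 and Eomes were lower in +Fgf, as most of these neuron genes were. The factors are grouped here by this same comparison, so the contrast is a description.

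Sncg, a synuclein enriched in ganglion cells, was at 119.1, 112.2 and 95.83 in Day 15 +Fgf and at 1.61, 2.31 and 2.31 in Day 15 +Wnt, a difference of 5.53 ± 0.27 (limma, adjusted p = 2e-11). Mstn was between 6.01 and 7.69 in Day 15 +Fgf and at most 0.075 in Day 15 +Wnt (4.48 ± 0.27, adjusted p = 2.5e-10). Opn4, the melanopsin gene of light-sensitive ganglion cells, was lower in +Fgf by -3.91 ± 0.25 (adjusted p = 7.4e-10), with values between 5.89 and 7.75 in Day 15 +Wnt. The growth cone gene Gap43 and the neuronal stathmin gene Stmn2 differed by 0.35 ± 0.11 and 0.51 ± 0.18 (adjusted p = 0.010 and 0.017). Dcc, a guidance receptor, was not called at -0.12 ± 0.17 (adjusted p = 0.53).

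**Figure D4:**
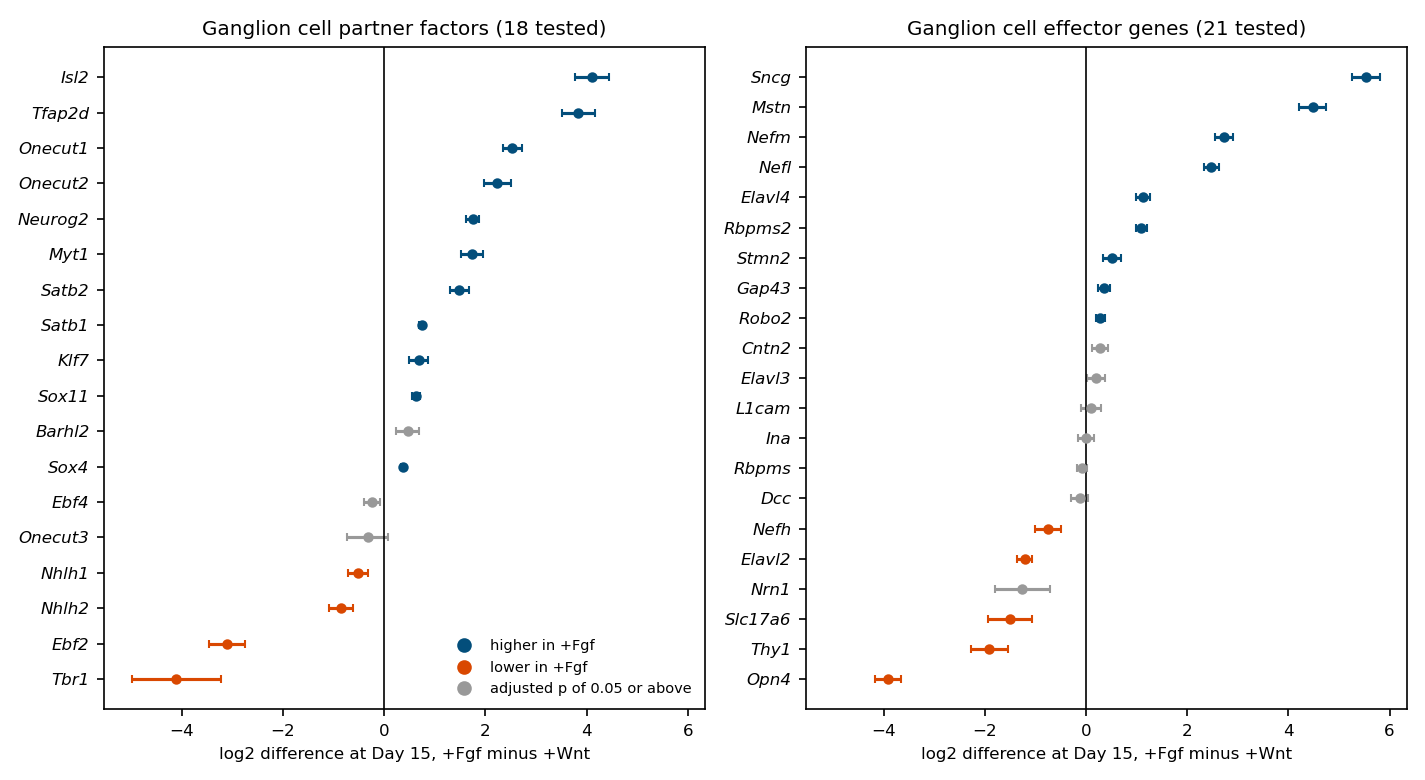
Log2 differences between Day 15 +Fgf and Day 15 +Wnt for 18 partner factors (left) and 21 effector genes (right) of ganglion cells. Points are limma estimates with SE, blue and orange mark genes with an adjusted p under 0.05 that were higher or lower in +Fgf. Isl2, Tfap2d and Sncg lie at the upper end, Tbr1, Ebf2 and Opn4 at the lower end, and 11 of 18 factors and 9 of 21 effector genes were higher in +Fgf, beside 38.0% of all tested genes. The difference between the lists was not tested.

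Markers of other cells that use these factors were read beside them. Of 6 amacrine and horizontal cell markers, 2 were higher and 3 lower in Day 15 +Fgf than in Day 15 +Wnt, beside 38.0% and 30.6% of all genes, and their sum was between 63.3 and 68.4 in Day 15 +Fgf and between 122 and 165 in Day 15 +Wnt. Ptf1a, the defining factor of these lineages, was between 6.15 and 7.08 in Day 15 +Fgf and at most 0.149 in Day 15 +Wnt (4.26 ± 0.26, limma, adjusted p = 3.8e-10), whereas Lhx1, a horizontal cell factor, was lower in +Fgf by -4.15 ± 0.60 (adjusted p = 1.1e-05). Of 6 photoreceptor markers, 5 were higher and 1 lower in Day 15 +Fgf. Their sum was between 412 and 474 in Day 15 +Fgf, 245 and 277 in Day 15 +Wnt, and 245 and 276 at Day 10. They include Crx, which was also counted among the neural retina genes. For the forebrain interneurons that use Dlx1 and Dlx2, 3 of 7 markers were tested, of which 1 was higher and 2 lower in Day 15 +Fgf, and Dlx5 and Dlx6, the partners of Dlx1 and Dlx2 in the forebrain, were at most 0.777 and 0.147 in Day 15 +Fgf. The GABA-producing enzyme gene Gad2 was at a mean of 34.0 in Day 15 +Fgf and 1.56 in Day 15 +Wnt, whereas Gad1 was at 1.90 and 5.89 and the progenitor factor Gsx2 at 1.58 and 24.2 in these groups. The 7 markers summed to between 38.4 and 41.4 in Day 15 +Fgf and between 29.7 and 34.5 in Day 15 +Wnt. Of 5 sensory and cranial neuron markers, which matter for Pou4f1 and Isl1, 3 were tested, none was higher and 1 was lower in Day 15 +Fgf, and the sum of the 5 was between 5.15 and 13.4 in Day 15 +Fgf and between 9.80 and 11.3 in Day 15 +Wnt. Of 6 mesenchyme markers, none was higher and 5 were lower in Day 15 +Fgf than in Day 15 +Wnt. Against Day 10, 5 of these markers were higher in Day 15 +Wnt and none was lower, beside 39.6% of all genes higher and 40.2% lower. Their sum was between 49.4 and 62.2 at Day 10. In +Fgf, it was between 124 and 157 at Day 12 and between 109 and 130.1 at Day 15. In +Wnt, it was between 78.2 and 91.7 at Day 12 and between 236 and 291 at Day 15. Ebf1 and Ebf3 stood above Day 10 in every later group and were highest in Day 15 +Fgf. The part of these cells in the values of the 10 genes was not tested.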

How the data were processed

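RNA-Seq libraries were made with a stranded mRNA kit. Paired reads were mapped by the authors to mm10 in TopHat2 2.0.8b, and were then counted on the UCSC transcriptome with Cuffdiff of Cufflinks 2.1.1 and normalized with edgeR 3.2.4. The deposited values are treated as a normalized signal, because the columns sum to between 936418 and 1075448. Whole reads were recovered from 100% of values (within 0.1 read). All columns belonged to these samples.

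The members and lists were chosen with earlier results of these data known. Genes were named by the rule of the 10 symbols and from the 3 genes most like each. From the lists of partner factors and effector genes, the 3 highest genes and the 3 largest changes between the Day 15 groups were named. Ebf2 and genes of the marker lists, such as Ptf1a, Lhx1 and Gsx2, were named outside this rule. Some genes of the lists are not reported here, and counts and sums are given without them. Since the values are not counts, limma 3.58.1 (R 4.3.3) was used, with 1 fit of 5 group means to 15 libraries on log2(value + 0.3), a trend and Benjamini-Hochberg adjustment over 13845 genes. The procedure was tested on simulated data. The 26 alternatives covered the pseudocount (0.05 and 1), the filter (none, or 10 CPM), quantile and median-of-ratios scaling, edgeR 4.0.16 and DESeq2 1.42.0 on recovered reads, the groups compared alone, RIN, the replicate block and leaving out each library. Positions are from GENCODE on GRCm38 (mm10). Precision is set by 3 replicates and by depth, and intervals are Clopper-Pearson intervals of summed reads. Python 3.11.15 and matplotlib 3.10.9 were used for the rest.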

Additional observations from a re-analysis of the deposited data

Results flagged for a closer look

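The change from Day 12 to Day 15 differed between the stimulations for 7 of the 9 tested genes by the interaction term of the limma fit. On the log2 scale, the change in +Fgf exceeded that in +Wnt by 4.13 for Atoh7, 3.2 for Isl1, 2.83 for Dlx1, 2.68 for Pou4f1, 2.62 for Ebf1, 2.35 for Ebf3 and 1.72 for Dlx2. The value for Dlx2 was not called with RIN as a covariate (1.85, adjusted p = 0.067).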

How the results depend on the processing

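Of 62 called differences among the 9 tested genes, 53 were called in the same direction under all 26 alternatives. The other 9 were each lost under at least 1 of them. With RIN as a covariate, calls were lost for Isl1 from Day 12 to Day 15 +Fgf (1.29), Ebf3 (0.59) and Eomes (-0.42) between the Day 15 groups, Eomes from Day 10 to Day 12 +Wnt (1.16) and Dlx2 in the difference of changes (1.85). The cause was not tested. Ebf3 from Day 10 to Day 12 +Fgf was lost in 7 of the alternatives that keep all libraries besides the replicate block, and without either Day 10 replicate 1 or 2 (0.35 and 0.37) or any single Day 12 +Fgf library (0.38, 0.41 and 0.46), or Day 12 +Wnt replicate 2, Day 15 +Fgf replicate 2 or Day 15 +Wnt replicate 1 (0.41 each). Pou4f1 lost its call against Day 10 without Day 10 replicate 1 (0.41 at Day 12 +Wnt and 0.35 at Day 15 +Wnt) or 2 (0.53 and 0.47), without Day 12 +Wnt replicate 2 or 3 (0.46 and 0.48 at Day 12), and without Day 15 +Wnt replicate 1 (0.33 at Day 15). Isl1 from Day 10 to Day 12 +Wnt was called without Day 10 replicate 3 (-0.84), Day 12 +Fgf replicate 2, Day 15 +Wnt replicate 1 or 3 (-0.67 each) or Day 12 +Wnt replicate 3 (-0.92), under quantile normalization (-0.86) and with the groups compared alone (-0.67). Atoh7 from Day 10 to Day 15 +Wnt was called without Day 10 replicate 1 or 2 (-0.78 and -0.79), under quantile normalization (-0.88) and in DESeq2 (-2.01), as was Dlx1 under quantile normalization (-0.74). Eomes from Day 12 to Day 15 +Wnt was called with the groups compared alone (0.37), Pou4f2 in the difference of changes with a pseudocount of 1 (1.53) and under quantile normalization (1.21), and from Day 12 to Day 15 +Wnt, Dlx1 was called without Day 12 +Wnt replicate 2 (-0.79) and Dlx2 without Day 12 +Wnt replicate 1 (0.74). The number of the 9 genes called from Day 12 to Day 15 +Wnt was 4 and became 7 under quantile normalization, while the other counts stayed within 1.5 times of their values.

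Only 1 called difference changed sign, Pou4f1 from Day 10 to Day 15 +Wnt under quantile normalization (-0.27). The other sign changes were of differences that were not called. From Day 10 to Day 12 +Fgf, these were Pou4f1 with RIN (0.37) and Eomes under quantile normalization (-0.14), median-of-ratios scaling (-0.010) and RIN (-0.94). From Day 10 to Day 12 +Wnt, they were Pou4f2 under quantile normalization (-0.020) and RIN (-0.32) and Dlx1 with RIN (-0.28). Dlx2 changed sign under quantile normalization from Day 10 to Day 15 +Wnt (-0.63) and from Day 12 to Day 15 +Wnt (-0.31), and Pou4f1 did so in edgeR in the latter (0.0055). In the difference of changes, Pou4f2 was at -0.38 with a pseudocount of 0.05, -0.75 in edgeR and -0.83 in DESeq2, and Eomes at -0.11 under quantile normalization.

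When each library was left out in turn, some of the values that were not called spanned 0, and the others kept their sign. Those that spanned 0 are given here. From Day 10 to Day 12 +Fgf they ranged from -0.27 to 0.025 for Pou4f1 and from -0.23 to 0.39 for Eomes. From Day 10 to Day 12 +Wnt the ranges were -0.087 to 0.23 for Pou4f2, -0.13 to 0.63 for Dlx1 and -0.44 to 0.15 for Dlx2. From Day 10 to Day 15 +Wnt they were -0.39 to 0.037 for Dlx1 and -0.0025 to 0.60 for Dlx2. From Day 12 to Day 15 +Wnt the range was -0.21 to 0.066 for Pou4f1, and in the difference of changes it was -0.34 to 0.88 for Eomes.

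The replicate numbers gave no sign of pairing between the libraries. Same-numbered libraries had a median correlation of deviations of -0.0080 (range -0.25 to 0.24), and 7 of 30 pairs were over 0.1. Libraries with other numbers had a median of -0.0079, and 14 of 60 pairs were over 0.1. With the replicate block, the genes called from Day 10 to Day 12 +Fgf went from 7 to 6, as Ebf3 was lost (0.41, adjusted p = 0.057), and no other call among the 9 genes changed. Depth limits what can be said of Atoh7, Pou4f2, Pou4f3 and Dlx1 outside +Fgf, where a library held at most 29 reads of each.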
